A study of Mus musculus with 8 samples.

Results

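The RNA-binding protein genes described here are widely used as marks of neurons or of neural stem cells and were followed through sorted cells of the adult mouse dentate gyrus. They were picked by name, as the genes Elavl2, Elavl3, Elavl4, Celf3, Celf4, Rbfox1, Rbfox2, Rbfox3, Msi1 and Msi2, which makes 10 of the 31053 genes in the count tables. All 10 gave unique molecular identifiers (UMIs, counted RNA molecules) in both libraries. The animals were male Nestin-GFP+/- mice of 8 weeks, in which green fluorescent protein is driven by control elements of the neural stem cell gene Nestin. The Control group had a sham craniotomy and the TBI group a unilateral controlled cortical impact, a model of traumatic brain injury, and both were taken 15 days after surgery. GFP-positive cells were sorted from dissected dentate gyri and the cells of several animals were pooled, so that each condition is 1 library. The labels list 4 animals for each group. The 2 libraries share the transgene and the sort, and the sort set which cells could be seen.

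RNA-binding proteins of these families control an mRNA after it has been transcribed. The Elavl (Hu) proteins bind AU-rich and U-rich stretches and hold the bound mRNA stable or promote its translation, with Elavl2, Elavl3 and Elavl4 as the members known from neurons. The Celf and Rbfox proteins regulate alternative splicing, and Rbfox3 is the antigen NeuN by which neurons are stained. Musashi proteins, encoded by Msi1 and Msi2, repress or activate the translation of their targets and are known from neural stem cells and astroglia. In the dentate gyrus, radial glia-like stem cells give rise to cycling progenitors, then to neuroblasts and to granule neurons, and the same tissue holds astrocytes, oligodendrocytes and vascular cells.

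After filtering, 3049 Control cells with 24629521 UMIs and 5036 TBI cells with 31503415 UMIs were kept, with a median of 6928 and 5663 UMIs per cell. The cells were clustered without the 10 genes and clusters were named by markers. Each name stands for a cluster with those markers and not for a proven cell type, so that astrocyte below means astrocyte-like. Markers were checked in each cluster. Mki67, a proliferation gene, was at 825 CPM (UMIs per 1000000) in the 382 cycling progenitors, Neurod1 was at 868 CPM in the 821 early neuroblasts and 168 CPM in the progenitors, and Calb2 was at 1809 CPM in the 790 late neuroblasts. Hopx was at 1480 CPM in the 133 stem-like astroglia, Aqp4 at 1235 CPM in the 1423 astrocytes and Mog at 2058 CPM in the 1686 oligodendrocytes. The other named clusters were 381 RG-like progenitors, 117 Reln neurons, 83 oligodendrocyte progenitors (OPC), 834 endothelial, 884 mural and 127 microglial cells. RG-like progenitors held Neurog2 at 380 CPM, and Hopx was at only 118 CPM in the progenitors, RG-like and cycling summed. The name RG-like therefore does not mark that cluster as the radial glia-like stem cells described above. Of the early neuroblast list, Eomes did not set early neuroblasts apart, at 641 CPM there and 642 CPM in the progenitors. Btg2 was lower there, at 213 CPM against 462 CPM, and the rest of the list was higher there than in the progenitors. Neurod1 did not set early neuroblasts apart from late ones. It was at 981 CPM in all neuroblasts, early and late summed, and so was higher in late than in early neuroblasts. Btg2 was also higher in all neuroblasts than in early neuroblasts. Eomes, Mdk, Igfbpl1, Nhlh1, Tac2 and Mfap4 were higher in early neuroblasts than in all neuroblasts. Of the late neuroblast list, Dcx and Sox11 were at 793 CPM and 3662 CPM in late neuroblasts, below the 832 CPM and 4154 CPM of all neuroblasts. Calb2, Neurod2, Plxna4, Gal, Sema3c and Stmn2 were higher in late neuroblasts than in all neuroblasts. No cluster was named immature granule neuron, although Camk2b of that list was among the leading genes of 1 late neuroblast cluster. Since there was 1 library per condition, no test between conditions was possible and no p-value is given. The 95% intervals below cover counting error only, and in a comparison between libraries fewer cells of a state within a cluster and less RNA per cell cannot be told apart. UMIs tag the 3′ ends of mRNAs, so that a count stands for molecules and was not corrected for gene length.

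The 10 genes were highest in different cells of the sort. All of them had UMIs in both libraries in late neuroblasts and Reln neurons. The same held for early neuroblasts, RG-like progenitors, OPC, astrocytes and oligodendrocytes, for some genes on few UMIs. Elavl2 and Elavl4 were highest in progenitors and early neuroblasts, and Rbfox3 in early and late neuroblasts. Celf3 and Rbfox2 were highest in late neuroblasts, Celf4 and Rbfox1 in late neuroblasts or Reln neurons, and Msi2 and Msi1 in astroglia. Elavl3 was the exception among the neuronal genes. Its level in oligodendrocytes, at 697 CPM in Control and 687 CPM in TBI, was as high as in late neuroblasts, at 652 CPM and 645 CPM. The heat map of levels by population and library shows these blocks.

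**Figure D1:**
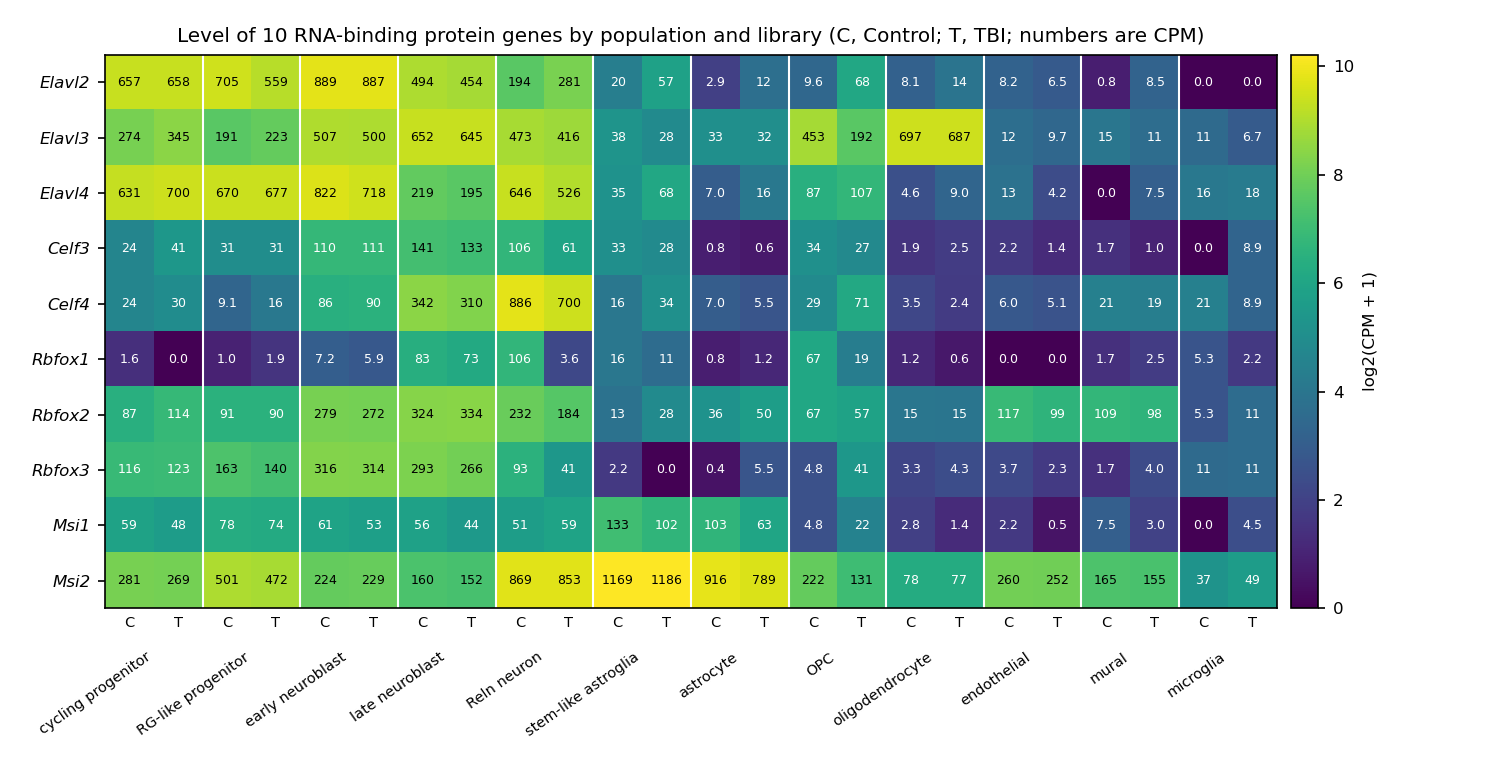
Level of the 10 genes (rows) in each named population (columns, Control and TBI side by side), printed in CPM and coloured by log2(CPM + 1). Elavl2 and Elavl4 have their highest value in early neuroblasts (for Elavl4 in TBI within the interval of cycling progenitors), Msi2 in stem-like astroglia when astrocyte clusters are pooled, and Elavl3 is at 697 CPM (Control) and 687 CPM (TBI) in oligodendrocytes.

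The 3 Elavl genes followed different courses although all are neuronal. To let their promoters be compared beside their levels, 300 bases of each are given, from 250 bases before to 50 after a listed start of transcription, from RefSeq on GRCm38.p6. All 3 lie on the minus strand, at chr4:91399935-91400234 for Elavl2, chr9:22051974-22052273 for Elavl3 and chr4:110351862-110352161 for Elavl4. Capitals mark CAGCTG, an E-box whose letters read the same on both strands and which basic helix-loop-helix factors such as Neurod1 can bind.
Elavl2: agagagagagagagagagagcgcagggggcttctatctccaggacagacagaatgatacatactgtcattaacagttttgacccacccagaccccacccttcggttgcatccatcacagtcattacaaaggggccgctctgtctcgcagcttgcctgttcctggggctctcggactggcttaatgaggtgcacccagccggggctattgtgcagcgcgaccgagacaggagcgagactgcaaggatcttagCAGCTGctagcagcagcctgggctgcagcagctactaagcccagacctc
Elavl3: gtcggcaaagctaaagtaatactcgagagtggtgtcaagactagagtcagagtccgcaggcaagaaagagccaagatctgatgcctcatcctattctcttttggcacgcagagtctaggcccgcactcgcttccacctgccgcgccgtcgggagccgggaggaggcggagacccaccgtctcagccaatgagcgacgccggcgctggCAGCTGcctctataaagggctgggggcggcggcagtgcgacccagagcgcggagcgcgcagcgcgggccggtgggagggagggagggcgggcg
Elavl4: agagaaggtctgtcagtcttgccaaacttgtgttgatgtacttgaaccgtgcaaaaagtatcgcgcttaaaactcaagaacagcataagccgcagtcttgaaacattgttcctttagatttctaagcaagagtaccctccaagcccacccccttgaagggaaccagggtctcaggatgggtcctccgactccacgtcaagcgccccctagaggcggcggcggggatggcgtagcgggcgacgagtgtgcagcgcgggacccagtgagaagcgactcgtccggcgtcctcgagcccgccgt

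The Elavl2 window held 1 CAGCTG and the Elavl3 window held 1, whereas the Elavl4 window held 0. CAGATG, searched on both strands, was in none of the 3. Of 6 starts listed for Elavl2, 1 for Elavl3 and 4 for Elavl4, only the start nearest the annotated 5′ end was searched. Among 32851 promoters of the same length, 16.3% held CAGCTG and 17.2% held CAGATG. The Elavl3 window was also the richest of the 3 in G and C, at 65.3% with 29 CpG, against 57.0% for both others and a median of 52.7% over all promoters. Of the other 7 genes, Celf3, Rbfox1, Rbfox3 and Msi2 matched the promoter table. In the annotation (GENCODE vM21), the genes span chr4:91250763-91400785 (Elavl2), chr9:22015005-22052023 (Elavl3) and chr4:110203722-110351909 (Elavl4), all on the minus strand. The listed start of Elavl2 lies 801 bases inside the annotated gene and that of Elavl3 at its end. Celf3 spans chr3:94478295-94492198, Rbfox1 chr16:5885355-7411526 and Msi1 chr5:115429599-115455698 on the plus strand. Rbfox2 spans chr15:77078990-77307004, Rbfox3 chr11:118489762-118911597 and Msi2 chr11:88339382-88718513 on the minus strand, and Celf4 lies on chromosome 18.

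Elavl2 was shared by progenitors and neuroblasts and declined late. It was at 657 CPM in Control and 658 CPM in TBI in cycling progenitors, and at 889 CPM and 887 CPM in early neuroblasts, its highest level in both libraries. In late neuroblasts it was at 494 CPM and 454 CPM. From cycling progenitors to late neuroblasts the log2 difference was -0.41 (interval -0.51 to -0.31) in Control and -0.54 (-0.64 to -0.43) in TBI. With both libraries summed it was -0.48, and only -0.09 when the libraries were clustered without integration. Within the late neuroblasts, the cluster called late neuroblast 1 held 668 CPM and 567 CPM and the cluster late neuroblast 3 held 316 CPM and 333 CPM. Camk2b, a kinase gene of maturing neurons, and Rbfox1 itself were among the leading genes of late neuroblast 3.

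Elavl4 had a steeper decline, and its peak in early neuroblasts was clear of cycling progenitors in Control but not in TBI. Its level was 631 CPM in Control and 699.6 CPM in TBI in cycling progenitors, 822 CPM and 718 CPM in early neuroblasts, and 219 CPM and 195 CPM in late neuroblasts. In late neuroblast 3 it was at 114 CPM and 88.4 CPM. The log2 difference between late neuroblasts and cycling progenitors was -1.53 (-1.66 to -1.40) in Control and -1.85 (-1.98 to -1.72) in TBI. With both libraries summed it was -1.69, and -0.998 when cells with over 10% mitochondrial UMIs were left out before clustering. Reln neurons, which carry the Cajal-Retzius gene Reln, held Elavl4 at 646 CPM and 526 CPM but Elavl2 at 194 CPM and 281 CPM. Elavl4 was thus higher in Reln neurons than in late neuroblasts, and Elavl2 lower, in both libraries.

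Elavl3 ran the other way. Of the progenitors and neuroblasts it was lowest in RG-like progenitors, at 191 CPM in Control and 223 CPM in TBI, and stood at 274 CPM and 345 CPM in cycling progenitors. Early neuroblasts held 507 CPM and 500.1 CPM, and late neuroblast 3 held 693 CPM and 725 CPM. The log2 difference between late neuroblasts and cycling progenitors was 1.25 (1.13 to 1.37) in Control and 0.90 (0.78 to 1.02) in TBI. Of all UMIs of the 3 genes, Elavl3 took 12.2% in Control and 15.3% in TBI in RG-like progenitors, 22.9% and 23.8% in early neuroblasts, and 47.8% and 49.9% in late neuroblasts. The neuronal Elavl pool thus went from mainly Elavl2 and Elavl4 to mainly Elavl3 and Elavl2 along the clusters, in both libraries.

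Shares of cells with a UMI gave the same order, but they restate the levels and do not show a change within cells. To compare cells of unequal depth, each was thinned to 2000 UMIs and shallower cells were left out. A UMI of both Elavl2 and Elavl4 was then found in 44.1% of cycling progenitors, 54.4% of early neuroblasts and 15.5% of late neuroblasts. Elavl4, with or without Elavl2, was found in 67.0%, 71.7% and 26.1% of these cells. Whether the 2 genes met in cells more often than their own shares give was not tested. Elavl3 was found in 39.6%, 60.5% and 66.3% of these cells. In endothelial cells, which should lack the gene, the share with Elavl3 was 1.9%.

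**Figure D2:**
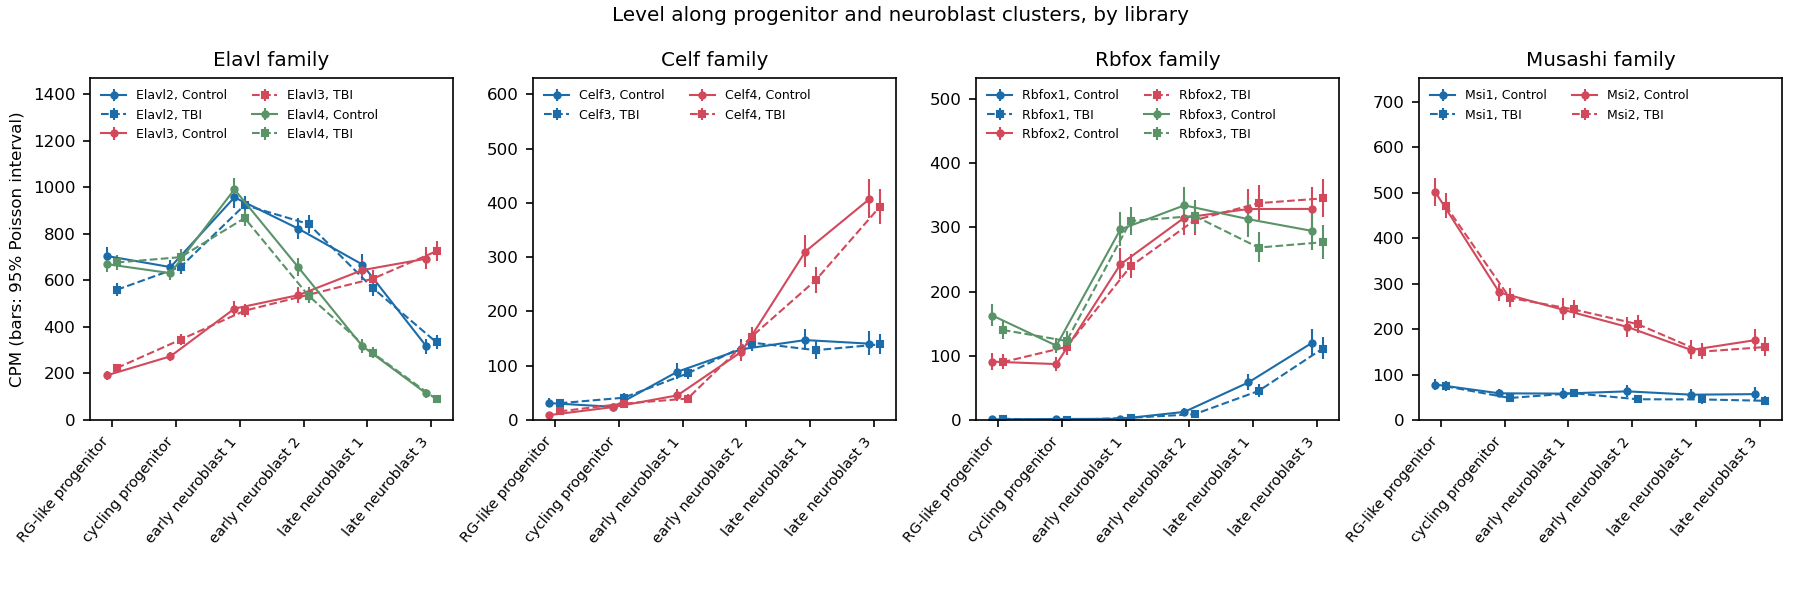
Level in CPM (y axis, from 0) of each gene in the RG-like, cycling, early neuroblast and late neuroblast clusters (x axis), one panel per family, circles and solid lines for Control, squares and dashed lines for TBI, bars for 95% Poisson intervals. The order of clusters is by markers and is no measured time, and the 73 cells of the shallow cluster late neuroblast 2 are left out; Elavl3, Celf4 and Rbfox1 end highest in late neuroblast 3, where Elavl4 ends lowest.

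The Celf genes were highest in neuroblasts and Reln neurons. Celf3 was at 24.2 CPM in Control and 41.0 CPM in TBI in cycling progenitors, already at 110 CPM and 111 CPM in early neuroblasts, and at 141 CPM and 133 CPM in late neuroblasts. Celf4, a regulator of mRNAs that set neuronal excitability, was at 23.9 CPM and 30.1 CPM in cycling progenitors and at 85.6 CPM and 90.4 CPM in early neuroblasts. It then reached 342 CPM and 310 CPM in late neuroblasts and was highest in Reln neurons, at 886 CPM and 699.5 CPM. From early to late neuroblasts Celf3 differed by 0.30 on the log2 scale (0.16 to 0.44, libraries summed) and Celf4 by 1.88 (1.75 to 2.00). Both were under 10 CPM in astrocytes, oligodendrocytes, endothelial cells and, for Celf3, also in mural and microglial cells. Celf4 was at 20.8 CPM and 19.4 CPM in mural cells. Stem-like astroglia and OPC were not free of them. Celf3 was at 33.2 CPM and 28.4 CPM in the former and 33.7 CPM and 27.4 CPM in the latter, which lies in the range of the progenitors. Both Celf genes together had only 22 and 11 UMIs in stem-like astroglia and 13 and 36 in OPC. Among cells with no UMI of 8 neuroblast genes, Celf3 had 0 UMIs in 27 Control and 19 TBI stem-like astroglia. It had 3 and 1 UMIs in 12 and 15 such OPC. The upper limits for the 0 UMIs were 39.9 CPM and 66.6 CPM, above the levels of all stem-like astroglia, so these cells are too few to show absence. Celf4 had 3 UMIs in each library in the same stem-like astroglia, at 32.5 CPM in Control and 54.2 CPM in TBI. In all stem-like astroglia it was at 15.5 CPM and 34.1 CPM, within the intervals of the former. In the same OPC it had 0 UMIs in Control and 3 in TBI. Celf4 in OPC was at 28.9 CPM in Control and at 71.1 CPM in TBI.

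The Rbfox genes differed most in when they appeared. Rbfox2, which is used by many tissues, was at 87.1 CPM in Control and 114 CPM in TBI in cycling progenitors and at 324 CPM and 334 CPM in late neuroblasts. In vascular cells it was at 117 CPM and 98.9 CPM (endothelial) and 109 CPM and 97.7 CPM (mural), where Rbfox1 and Rbfox3 were under 5 CPM. OPC held Rbfox2 at 67.5 CPM and 57.5 CPM, and also Rbfox1 at 67.5 CPM and 19.2 CPM, each on at most 21 UMIs. Rbfox3, the NeuN gene, was already at 163 CPM and 140 CPM in RG-like progenitors. It stood at 316 CPM and 314 CPM in early neuroblasts and did not go higher in late neuroblasts, at 293 CPM and 266 CPM. Its difference between late and early neuroblasts was -0.18 on the log2 scale (-0.27 to -0.09, libraries summed).

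Rbfox1 was the latest of the 10 genes. It gave 5 UMIs in Control and 0 of 2290042 UMIs in TBI in cycling progenitors, 24 and 28 UMIs in early neuroblasts, and 232 and 256 UMIs in late neuroblasts. In CPM, the late neuroblasts were at 83.5 in Control and 73.1 in TBI, with 58.5 and 45.2 in late neuroblast 1 and 121 and 111 in late neuroblast 3. The lower end of the interval of its log2 difference between late neuroblasts and cycling progenitors was 4.45 in Control and 5.49 in TBI. After thinning, 13.9% of late neuroblasts and 0.7% of early neuroblasts had a Rbfox1 UMI. In Reln neurons Rbfox1 differed between the libraries, with 25 UMIs in 29 Control cells and 2 UMIs in 88 TBI cells. Of those TBI cells 17.0% were called doublets, against 0 of the Control cells, and the part of this in the difference was not tested.

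Against all genes, 5 of the 9 members with enough UMIs in cycling progenitors were at least 2-fold higher in late neuroblasts (Elavl3, Celf3, Celf4, Rbfox2 and Rbfox3), as were 13.2% of 9155 genes tested. At least 2-fold lower were 1 of 9 (Elavl4) and 10.7% of all genes. The median log2 difference was 1.09 over the 9 members and 0.08 over all genes. Of 46 other RNA-binding protein genes listed for comparison, 40 could be tested, with 7 at least 2-fold higher, 5 at least 2-fold lower and a median of 0.17. The highest were Celf5 (2.53), Cpeb3 (2.46) and Nova2 (2.18), the last a neuronal splicing regulator. The lowest were Zfp36l1 (-5.70), which promotes mRNA decay, Rbm24 (-4.58) and Khdrbs3 (-1.33). Ptbp1, the splicing repressor of non-neuronal cells, was lower in late neuroblasts (-1.26), and its neuronal paralog Ptbp2 was at 0.22.

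Known targets of the members did not move as a group. Gap43, a growth cone gene and Elavl4 target, was higher in late neuroblasts than in cycling progenitors by 2.43 in Control and 1.67 in TBI on the log2 scale, although Elavl4 was lower there. Mapt, which encodes tau, was higher by 2.13 and 2.21. Cdkn1a, a cell cycle inhibitor and a target of Elavl and Musashi proteins, differed by -2.37 and -2.42. Numb, the Musashi target that inhibits Notch signalling, differed by -0.31 and 0.50 with intervals that include 0. Bdnf rested on at most 30 UMIs in a cluster and library.

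The Musashi genes were highest in astroglia. Among the populations, with the astrocyte clusters pooled, Msi2 was highest in stem-like astroglia, at 1169 CPM in Control and 1186 CPM in TBI, followed by astrocytes at 916 CPM and 789 CPM and Reln neurons at 869 CPM and 853 CPM. The cluster astrocyte 3 alone was above stem-like astroglia. Astrocytes and Reln neurons did not differ beyond their intervals. RG-like progenitors held more Msi2, at 501 CPM and 472 CPM, than cycling progenitors, at 281 CPM and 269 CPM. The order of these progenitor clusters in time was not tested. Msi2 was lower again in early neuroblasts, at 224 CPM and 229 CPM, and in late neuroblasts, at 160 CPM and 152 CPM. Its level was lowest in microglia, at 37.0 CPM and 49.0 CPM. Endothelial cells held 260 CPM and 252 CPM, so that Msi2 was present well outside the neural cells.

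Msi1, the Musashi gene best known as a stem cell mark, also had its highest level in stem-like astroglia when the astrocyte clusters were pooled. Its interval there overlapped that of the next population in both libraries. In Control the cluster astrocyte 3 alone was above stem-like astroglia. Msi1 was at 133 CPM in Control and 102 CPM in TBI in stem-like astroglia, 78.0 CPM and 74.2 CPM in RG-like progenitors, and 55.8 CPM and 43.7 CPM in late neuroblasts. Between late neuroblasts and cycling progenitors its log2 difference was -0.07 (-0.39 to 0.24) in Control and -0.15 (-0.51 to 0.22) in TBI, so no difference was detectable at this depth. Vascular cells, oligodendrocytes and microglia held under 10 CPM.

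**Figure D3:**
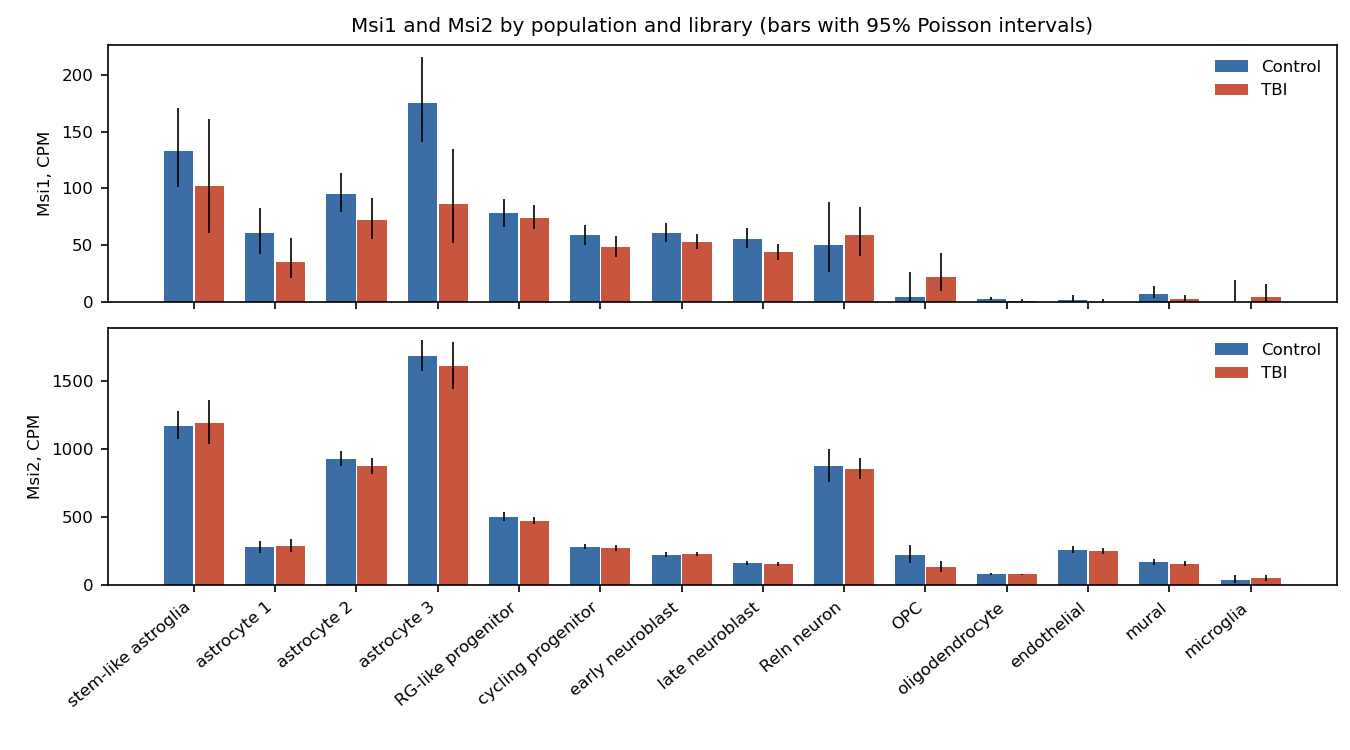
Level of Msi1 (upper panel) and Msi2 (lower panel) in CPM, from 0, by population and library, with 95% Poisson intervals, and the 3 astrocyte clusters shown apart. Msi2 is highest in astrocyte 3 and stem-like astroglia, and Msi1 is lower in TBI than in Control in all 3 astrocyte clusters.

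The astrocyte clusters differed among themselves by more than the libraries did. Msi2 was at 277 CPM in Control and 285 CPM in TBI in astrocyte 1, 926 CPM and 870.3 CPM in astrocyte 2, and 1680.2 CPM and 1603 CPM in astrocyte 3. Astrocyte 1 was the shallowest of the 3, with a median of 2131 UMIs per cell in Control, against 5968 in astrocyte 2 and 2752 in astrocyte 3. The median mitochondrial share in Control was 13.0% in astrocyte 1, 6.68% in astrocyte 2 and 14.1% in astrocyte 3. The part of depth and RNA quality in the range of Msi2 was not tested.

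The Elavl3 RNA in oligodendrocytes was not accompanied by the other neuronal members. There Elavl3 was at 697 CPM (675 to 719) in Control and 687 CPM (670 to 704) in TBI, whereas Elavl2 was at 8.07 CPM and 14.2 CPM and Elavl4 at 4.56 CPM and 8.95 CPM. Celf3, Celf4, Rbfox1 and Rbfox3 were all under 5 CPM. Elavl3 took 98.2% of the Elavl UMIs of the 3 genes in Control and 96.7% in TBI. The ratio of Elavl3 to neuroblast RNA was not that of neuroblasts. For each UMI of Dcx, the doublecortin gene of neuroblasts, oligodendrocytes held 81.0 Elavl3 UMIs in Control and 45.9 in TBI, and late neuroblasts held 0.848 and 0.794.

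Elavl3 was also present in oligodendrocytes that had no UMI of any of 8 genes of neuroblasts. These were 120 Control cells, at 624 CPM of Elavl3 and 1.54 CPM of Elavl2, and 228 TBI cells, at 655 CPM and 4.25 CPM. After thinning to 2000 UMIs, 68.4% of oligodendrocytes had an Elavl3 UMI, against 66.3% of late neuroblasts, 4.8% of astrocytes and 1.0% of microglia. The unthinned shares in oligodendrocytes and astrocytes were 90.7% and 7.31%, at a median of 8834 and 2730 UMIs. Elavl3 thus differed between the main glial types, with 33.2 CPM in Control and 32.3 CPM in TBI in astrocytes. OPC lay between them at 453 CPM and 192 CPM on 94 and 70 UMIs, a log2 difference of -1.24 (-1.71 to -0.78) between TBI and Control. Beside that difference between the libraries, Dcx was at 43.4 CPM in Control and 139.5 CPM in TBI in OPC. Whether the OPC cluster holds cells of unlike stages in the libraries was not tested. A gene on the same strand, Gm49318 (chr9:22036380-22071259), overlaps the 5′ part of Elavl3 and had 0 UMIs in oligodendrocytes. Since UMIs tag 3′ ends, an overlap in the 5′ part says little about the Elavl3 count. No conclusion is drawn from the 0 UMIs.

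**Figure D4:**
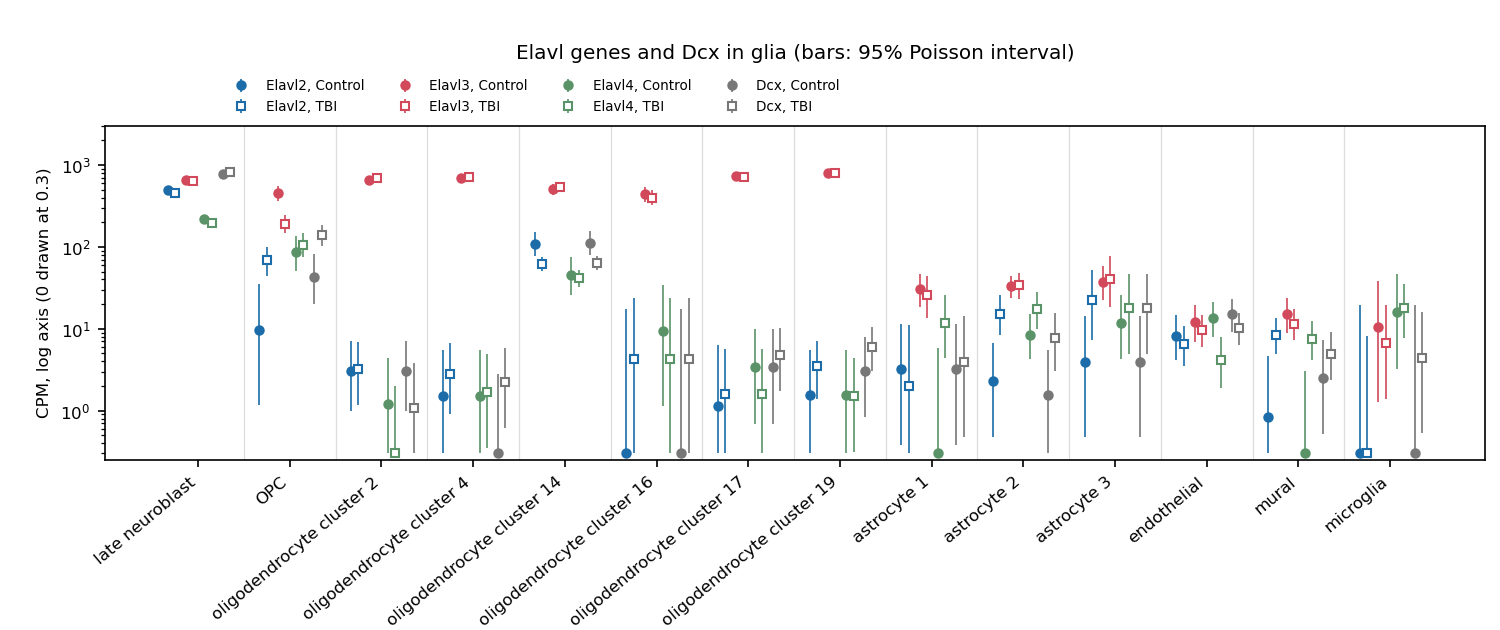
Level in CPM (log axis, 0 drawn at the bottom) of Elavl2, Elavl3, Elavl4 and Dcx in late neuroblasts, glial clusters and vascular cells, filled for Control and open for TBI, with 95% Poisson intervals. Elavl3 is high in all 6 oligodendrocyte clusters, while Elavl2, Elavl4 and Dcx are high only in the cluster numbered 14 among them.

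Injury was the comparison the study was built on, and the members differed little between the libraries within neuroblasts. In early neuroblasts 0 of 9 members tested were 1.5-fold or more apart, against 1.84% of 8164 genes. In late neuroblasts 0 of 10 were, against 2.31% of 7539 genes, and in the summed cycling and RG-like progenitors 0 of 9, against 2.74% of 9016 genes. Of the other RNA-binding protein genes none was past 1.5-fold in these 3 comparisons either, of 37, 35 and 37 tested. With backgrounds this low, a count of 0 is near what all genes gave.

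For some single genes the interval still left out 0, and the examples below were picked for that. The share of all genes with such an interval was not counted, so how common they are is not known. Elavl4 in early neuroblasts was at 822 CPM in Control and 718 CPM in TBI, a log2 difference of -0.20 (-0.27 to -0.12), with -0.19 and -0.30 in the 2 early neuroblast clusters. Elavl2 in RG-like progenitors differed by -0.33 (-0.44 to -0.23), and Elavl3 in cycling progenitors by 0.34 (0.19 to 0.48). Celf3 in cycling progenitors was at 24.2 CPM and 41.0 CPM on 75 and 94 UMIs, a difference of 0.76 (0.31 to 1.22). This is past 1.5-fold, although it was not with RG-like progenitors added, which held 31.1 CPM and 30.9 CPM. The share of all genes past 1.5-fold was not counted in cycling progenitors alone. In early and late neuroblasts Celf3 differed by 0.02 (-0.18 to 0.22) and -0.09 (-0.28 to 0.11). In cycling progenitors the 8 neuroblast genes summed to 4762 CPM in Control and 5760 CPM in TBI. For each Dcx UMI these cells held 1.09 and 1.04 Elavl3 UMIs. The part of neuroblast RNA in the Elavl3 and Celf3 differences was not tested. None of these intervals holds the spread between animals, which pooling removed.

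In astrocytes 1 of 4 members tested was past 1.5-fold, against 3.04% of 6291 genes and 0 of 29 other RNA-binding protein genes. It was Msi1, at 103 CPM in Control and 62.8 CPM in TBI on 251 and 103 UMIs, a log2 difference of -0.71 (-1.06 to -0.38). The difference had the same sign in the 3 astrocyte clusters, at -0.76, -0.40 and -1.02, and the interval included 0 in the first and second. It was -0.34 (-0.79 to 0.10) when cells with over 10% mitochondrial UMIs were left out. Msi2 over all astrocytes differed in the same direction by less, at -0.22 (-0.32 to -0.12). Within each of the 3 clusters its levels, given above, were closer between the libraries, and in astrocyte 1 Msi2 was higher in TBI. The cluster highest in Msi2, astrocyte 3, held 228 of 722 Control and 138 of 701 TBI astrocytes. The part of this in the Msi2 difference was not tested. TBI astrocytes had a median of 2228 UMIs per cell and Control astrocytes 3208.

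In oligodendrocytes 2 of 5 members tested were past 1.5-fold, against 2.05% of 8669 genes and 0 of 33 other RNA-binding protein genes. They were Elavl2, with 46 UMIs in Control and 125 in TBI (0.81, interval 0.31 to 1.33), and Elavl4, with 26 and 79 UMIs (0.97, interval 0.32 to 1.67). Neuroblast genes moved with them, with Dcx higher in TBI by 0.80, Sox11 by 0.78, Tubb3 by 0.65 and Igfbpl1 by 0.65, whereas Neurod1 was at -0.40 and Prox1 at 0.04. The 8 neuroblast genes summed to 364 CPM in Control and 434 CPM in TBI, and all 8 had UMIs in both. Most of the Elavl2 and Elavl4 UMIs came from cluster 14, which held 35 Control and 221 TBI cells and in which 19.1% of cells were called doublets. It gave 36 of the 46 Control and 104 of the 125 TBI UMIs of Elavl2, and within it Elavl2 was lower in TBI, at 61.7 CPM against 109.9 CPM. Without cluster 14 the Elavl2 difference was 0.66 (-0.49 to 1.91) and the Elavl4 difference -0.70 (-2.15 to 0.71). With called doublets removed, Elavl2 was at 0.41 (-0.75 to 1.67), no longer past 1.5-fold. Elavl3 in the same cells differed by -0.02 (-0.08 to 0.04).

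**Figure D5:**
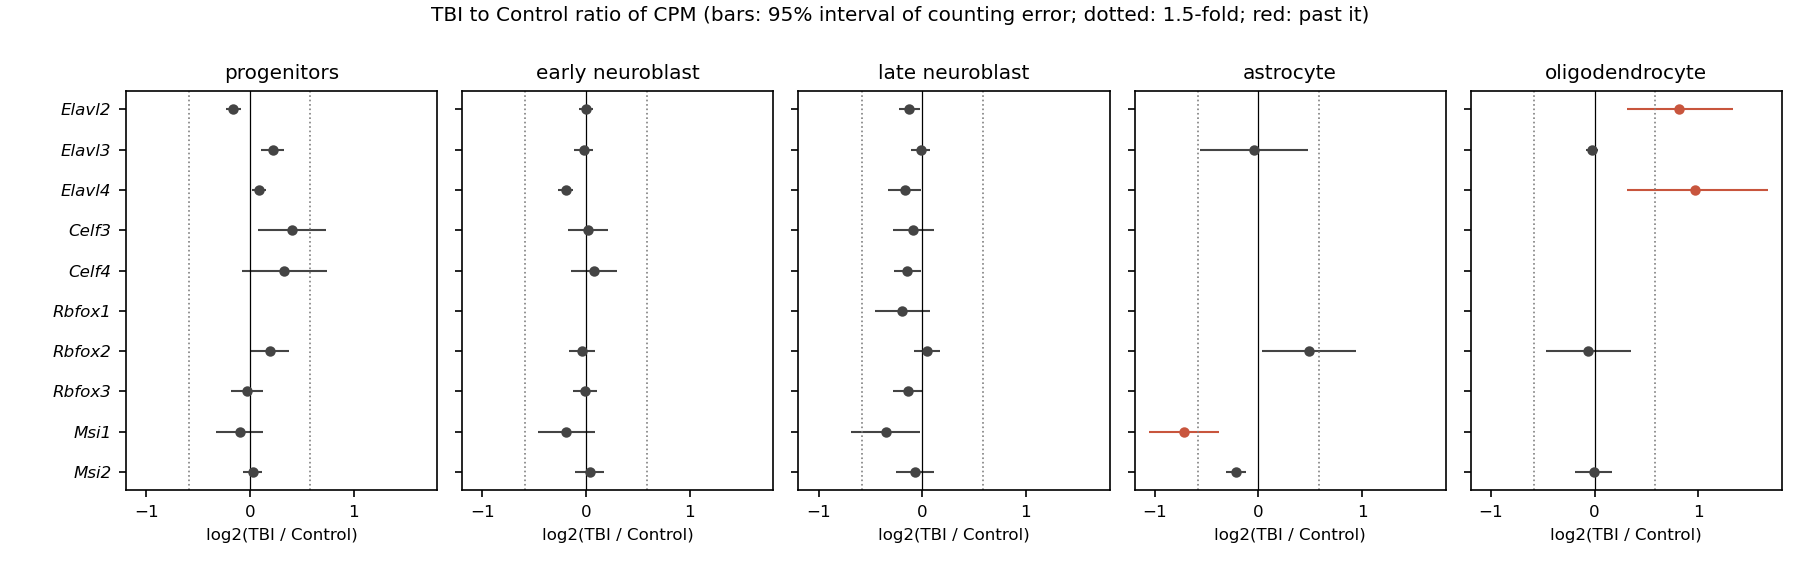
Log2 of the TBI to Control ratio of CPM (x axis) for each gene (rows) with enough UMIs, in 5 populations (panels); bars are 95% intervals of counting error and dotted lines mark 1.5-fold. Points past 1.5-fold are Msi1 in astrocytes and Elavl2 and Elavl4 in oligodendrocytes.

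The genes whose levels ran most like those of each member were taken over 24 points, the 12 named populations in each library. These correlations of log2(CPM + 1) are descriptions, since points share a library and the clusters were made from the same cells. The closest to Elavl2 was Rcor2, with r = 0.98, and to Elavl4 it was Sept3, with 0.94. Elavl3 ran most like Asxl3 (0.95), Celf3 like Add2 (0.96) and Celf4 like the synaptic vesicle gene Syt1 (0.91). For Rbfox1 it was Camk2b (0.88), for Rbfox2 Nrep (0.92) and for Rbfox3 Cct2 (0.96). Msi1 ran most like Pax6 (0.94), a transcription factor of radial glia, and Msi2 like Tmem47 (0.91). Among the members, Elavl2 with Elavl4 was the highest pair (0.90), followed by a pair of 2 families, Elavl4 with Celf3 (0.85). Msi1 with Msi2 was at 0.74, and the pairs of Rbfox genes were at 0.29 to 0.64. Msi2 with Elavl3 was at 0.04, and the lowest pair was Msi2 with Rbfox3 (-0.07).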

How the data were processed

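Droplet 3′ RNA-seq (10x Genomics v3) was done on GFP-positive dentate gyrus cells, with animals pooled into 1 Control and 1 TBI library. The authors deposited raw UMI counts per gene and cell, made with Cell Ranger 3.0.2 on GRCm38/mm10 according to the submitters' processing notes. The tables were assigned to Control and TBI by the series' table names and by the cell barcodes the study lists for each condition, and 0 columns of per-sample values were left unmapped. The study's text gives other animal numbers than the labels.

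Kept cells had at least 200 genes and a UMI total no more than 3 median absolute deviations (log scale) from their library's centre, which left 503 to 47456 UMIs per cell. There were 3 barcodes shared by the libraries. Clustering followed the study (Seurat 5.3.0 in R 4.3.3, CCA integration on 20 dimensions, 20 components, resolution 3.0, then lineage cells on 30 dimensions and 16 components at resolution 0.8), with Malat1 and the 10 genes left out of the variable genes. A cluster took the name with the highest mean standardized marker level, and needed 3 detected markers. It stayed unnamed where its median UMIs were under 0.333 of the libraries' with none of its markers among its top 10 genes, or where more markers of another name were among these. Names were rebuilt here and can differ from those of the study. Doublets called by Scrublet (scanpy 1.11.5), 32 in Control and 107 in TBI, were left in.

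UMIs were summed per population and library and divided by all UMIs except Malat1 (CPM), in Python 3.11.15. Intervals at 95% were exact Poisson for levels, Clopper-Pearson for shares and conditional binomial for ratios (scipy 1.17.1), and cover counting error only. Genes were compared where both groups had at least 10 UMIs and 100 together. No test was run. The genes the text names were the 10 members in every population, the gene most correlated with each among genes with at least 500 UMIs, and the 3 highest and 3 lowest of the 46 other RNA-binding protein genes. Ptbp1 and Ptbp2 were named after their values were seen. One of the 46, listed as Qki, is Qk in the files. The members, lists and markers were chosen with earlier results of these data known. Calculations were checked on simulated counts. Some marker results are not reported here.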

Additional observations from a re-analysis of the deposited data

How the results depend on the processing

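Alternatives changed the filter on RNA content, mitochondrial limit, doublets, integration, variable genes, resolution, CPM denominator and minimum depth; those on glia were chosen after seeing the data. Of 100 recomputed late neuroblast to cycling progenitor differences 90 moved less than their counting error and 10 moved. The latter were 5 of Elavl2 (range -0.50 to -0.09, the highest without integration), 4 of Elavl4 (range -1.72 to -0.998) and 1 of Celf4. No difference past 2-fold reversed. In all 99 kept their sign, and Msi1 went from -0.15 to 0.0098 with doublets removed. The count of members at least 2-fold higher stayed at 5, and that of members at least 2-fold lower went from 1 to 0 with the mitochondrial limit. Of 100 recomputed TBI to Control differences in neuroblasts none moved beyond counting error and 0 members passed 1.5-fold. With the mitochondrial limit, the log2 difference of Elavl3 between oligodendrocytes and astrocytes was 4.65 (4.39 as reported), that of Msi2 between astrocytes and late neuroblasts 2.24 (2.47), and that of Msi1 between TBI and Control astrocytes -0.34. Msi2 was at 2.36 without integration and 2.81 without astrocyte 1. In oligodendrocytes Elavl2 ranged from 0.41 with doublets removed, no longer past 1.5-fold, to 1.46 in cells with no neuroblast UMI, on 1 and 5 UMIs. Elavl4 there reversed to -1.05 with doublets removed, -0.70 without cluster 14 and -1.44 in cells with no neuroblast UMI, each on at most 11 UMIs a library. The causes were not tested. Thinning to 1000 in place of 2000 UMIs lowered 106 of 120 shares. No paired analysis was possible because each condition is 1 library, and for the same reason none could be left out. Depth limits Rbfox1 in progenitors and all members in OPC and microglia.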

Other observations

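Clusters left unnamed for low UMIs with none of the name's markers among their leading genes were kept out of the comparisons. The 167 cells nearest to late neuroblasts had a median of 1595 UMIs and were led by globin genes (Hbb-bs, Hba-a1), and held Celf4 at 326 CPM in Control and 362 CPM in TBI, Elavl2 at 274 CPM and 349.9 CPM, and Elavl3 at 210.4 CPM and 398 CPM. The 41 cells nearest to oligodendrocytes, with a median of 68.6% mitochondrial UMIs, held Elavl3 at 175 CPM (64.4 to 382) and 318 CPM (117 to 693), each on 6 UMIs.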
